A study of Drosophila melanogaster with 4 samples.

Results

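The regions described here are the HP2 clusters in an 800 kb stretch of the middle of the X chromosome of Drosophila melanogaster, X:15600001-16400000 on FlyBase r5. A cluster is 1 entry of the authors' deposited lists of significant enrichment. Members were the 800 bins of 1 kb in the stretch and every cluster whose midpoint fell in it. There were 57 such clusters among 4728 in the list of replicate 1, 49 among 4163 in the list of replicate 2 and 70 among 7037 in the combined list made from the replicate set. The stretch was chosen by its dense coverage in these same lists, so its coverage, spacing, lengths and scores are descriptions and were not tested against the rest of X.

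The samples were 2 HP2 ChIP-seq libraries and 2 inputs from head nuclei of wild-type Oregon-R flies (Oregon-R-modENCODE), mixed adults by the labels, with replicate numbers from the titles. All libraries came from that 1 strain and tissue, and the antibody was Ab2-90. Head nuclei hold many cell types, so a cluster called in some of them only cannot be told apart from one called weakly in all. Whether the 2 ChIP libraries stem from different collections of flies is not in the labels, and their spread may thus be technical only. The lists give no read counts, so depth is unknown, and no expression values with which the tissue label could be checked.

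HP2 is a chromatin protein that binds heterochromatin protein HP1, the reader of methylated histone H3 lysine 9, and it is best known from pericentric heterochromatin and chromosome 4 of flies. Loss of HP2 relieves the silencing of genes placed next to heterochromatin (position effect variegation) in flies. The middle of X is part of the euchromatic arm, far from the pericentric region in the assembled sequence.

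HP2 clusters in the stretch fell mainly into 2 dense blocks, with few clusters in the interval between them. Replicate 1 had 1 further block of 28.7 kb beyond these, and the number of blocks depended on the rule that set their limits. In all 3 lists the left block ended and the right block began with the same clusters. The combined list was made from the replicate set, so it is not a separate replicate. In replicate 1, 19.5% of the stretch lay in clusters, against 7.59% of the rest of X, taken without the 2 Mb nearest the centromere. In replicate 2 the shares were 15.8% and 5.42%. The mean over both replicates was 17.6% ± 2.64 (SD, n = 2) in the stretch and 6.51% ± 1.53 in the rest of X, a ratio of 2.74 ± 0.24. In the combined list the shares were 24.3% and 10.8%. The stretch made up 3.92% of that part of X and held 9.49% of its covered bases in replicate 1 and 10.6% in replicate 2.

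Other stretches of the same size gave a scale for these shares. Among 18024 windows of 800 kb along X that did not touch the stretch, in steps of 1 kb, the median coverage was 7.54% in replicate 1, and in replicate 2 it was 5.21%. X:6110001-6910000, the densest of them in both replicates, reached 13.7% and 11.5%. No window reached the share of the stretch in either replicate or in the combined list, where the densest was 18.7% covered. The stretch was chosen by this same coverage, and neighbouring windows share nearly all their bases. The ranking covers windows of 1 chromosome and is not a test.

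**Figure D1:**
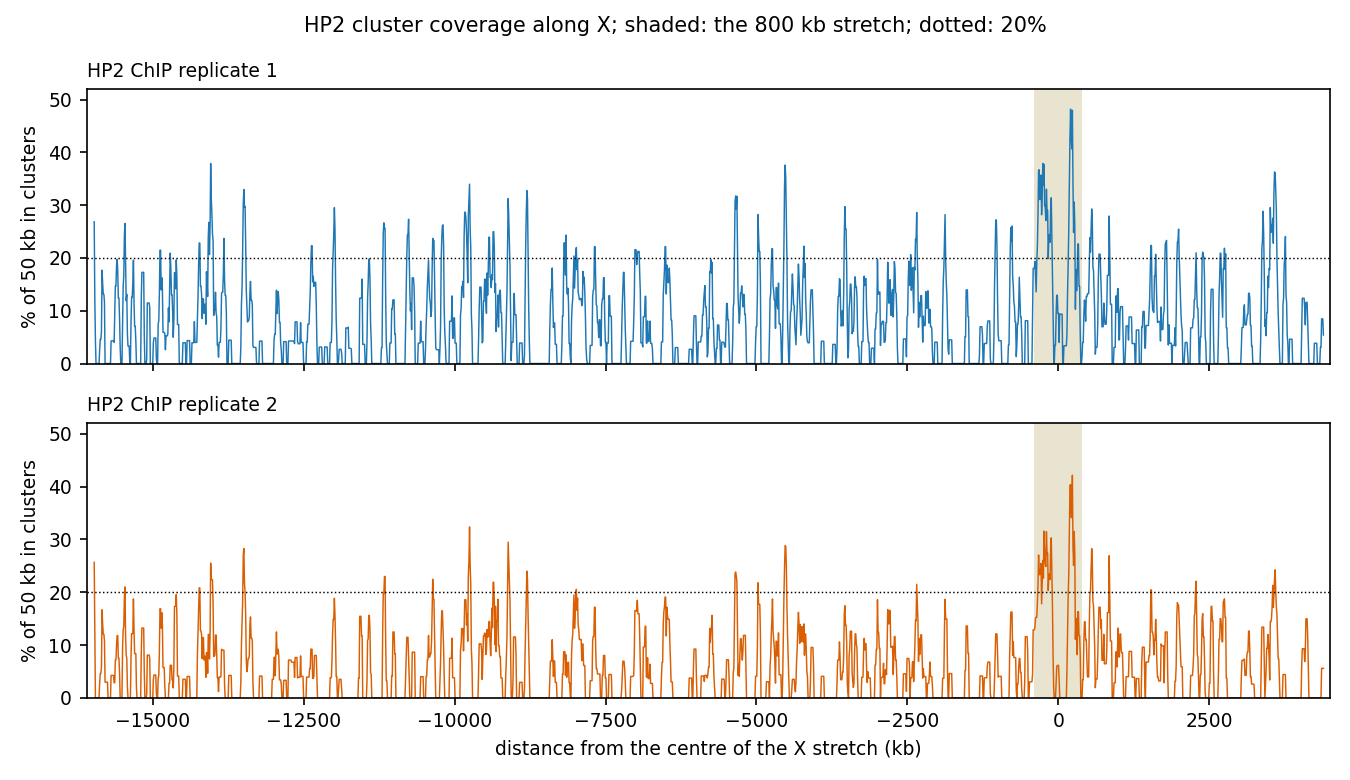
Percent of each 50 kb window in HP2 clusters along X without its proximal 2 Mb, for replicate 1 (upper) and replicate 2 (lower), against the distance in kb from the centre of the stretch; the shaded band is the 800 kb stretch and the dotted line marks 20%. Inside the band the profile rises above the dotted line on both sides of a low interval, while 8.56% of windows outside it passed 20% in replicate 1 and 2.5% in replicate 2.

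Block limits were set with a rule applied to each list alone. Sliding 50 kb windows, in steps of 1 kb, were kept where they were at least 20% covered. Each run of kept windows was trimmed to its first and last cluster base, and trimmed runs that overlapped were joined into 1 block. Some windows inside a block were therefore under 20%. The left block joined 4 runs in replicate 1 and 2 in replicate 2, and the right block was 1 run in both. Of the 751 windows inside the stretch, 379 (50.5%) passed in replicate 1 and 347 (46.2%) in replicate 2. Outside the stretch 8.56% of 19524 windows passed in replicate 1, 2.5% in replicate 2 and 19.7% in the combined list. Windows at the limits lay close to the threshold by construction, since neighbouring 50 kb windows differ only by 1 kb at each end. Their values do not show how sharp an edge was. At the right end of the left block, for example, the last window to pass in replicate 1 was 21.9% covered and the next 19.9%, and in replicate 2 the values were 21.3% and 19.3%.

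The left block ran from X:15591001-15901020 in replicate 1, a length of 310.0 kb, and held 34 clusters that covered 29.0% of it. Of these, 2 lay just left of the stretch itself. In replicate 2 it ran from X:15639675-15900880, a length of 261 kb, with 26 clusters and 26.2% covered. The combined list placed it at X:15568596-15901208, with 42 clusters and 34.4% covered. Its right end thus differed by 140 bp between the replicates and by 328 bp over the 3 lists. Its left end differed by 48674 bp between the replicates and by 71079 bp over the 3 lists.

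The right block was shorter and denser. It ran from X:16163987-16286742 in replicate 1, a length of 123 kb, with 15 clusters over 37.6% of it. In replicate 2 it ran from X:16163906-16286827 with 16 clusters over 34.5%. Its left end differed by 81 bp and its right end by 85 bp between the replicates. The combined list carried it on to position 16358764, giving 195 kb, 24 clusters and 35.4% covered. Mean coverage was 36.0% ± 2.20 (SD, n = 2) in the right block and 27.6% ± 2.01 in the left block. The right block was the more densely covered of the 2 blocks in each list.

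Both inner edges were set by clusters found in all 3 lists. Blocks were trimmed to cluster bases, so the close match of these edges restates that the same clusters were called. The score given with a cluster is the authors' own and is used only to describe and rank clusters within a list. The last cluster of the left block spanned X:15898771-15901020 in replicate 1, with a score of 0.810, and X:15898803-15900880 in replicate 2, with a score of 0.780. The first cluster of the right block spanned X:16163987-16165981 with a score of 0.631 in replicate 1, and X:16163906-16165938 with 0.809 in replicate 2. Neither edge cluster was among the highest-scoring of the stretch. They ranked 33rd and 43rd by score among the 57 clusters of replicate 1.

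The outer edges differed more between the lists. On the left, a cluster at X:15603444-15607651 (4208 bp, score 1.24 in replicate 1 and 1.16 in replicate 2) was followed by a cluster-free gap of 31698 bp in replicate 1. The rule kept that cluster in the left block in replicate 1 and left it out in replicate 2. Further left, starting 4359 bp away, replicate 1 had clusters at X:15596770-15599084 and X:15590401-15592890 and then none for 112276 bp. Replicate 2 had a cluster at X:15596861-15599086 and a gap of 48074 bp before it. The cluster just outside the stretch on that side, the one at X:15596770-15599084, scored 1.27 in replicate 1 and 1.03 in replicate 2, and the first one inside scored 1.24 and 1.16.

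On the right, a small group of clusters followed the right block after a gap of 28924 bp in replicate 1 and 28871 bp in replicate 2. In replicate 1 this group passed the rule as a separate block, X:16315667-16344358, with 4 clusters over 39.5% of 28.7 kb. In replicate 2 the same interval held 4 clusters but no window over it reached 20%, and in the combined list it was part of the right block. Beyond it came a cluster-free gap of 74944 bp in replicate 1 and 81975 bp in replicate 2. The last cluster inside the stretch scored 1.22 in replicate 1 and 0.888 in replicate 2, and the first one outside 0.725 and 0.642.

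**Figure D2:**
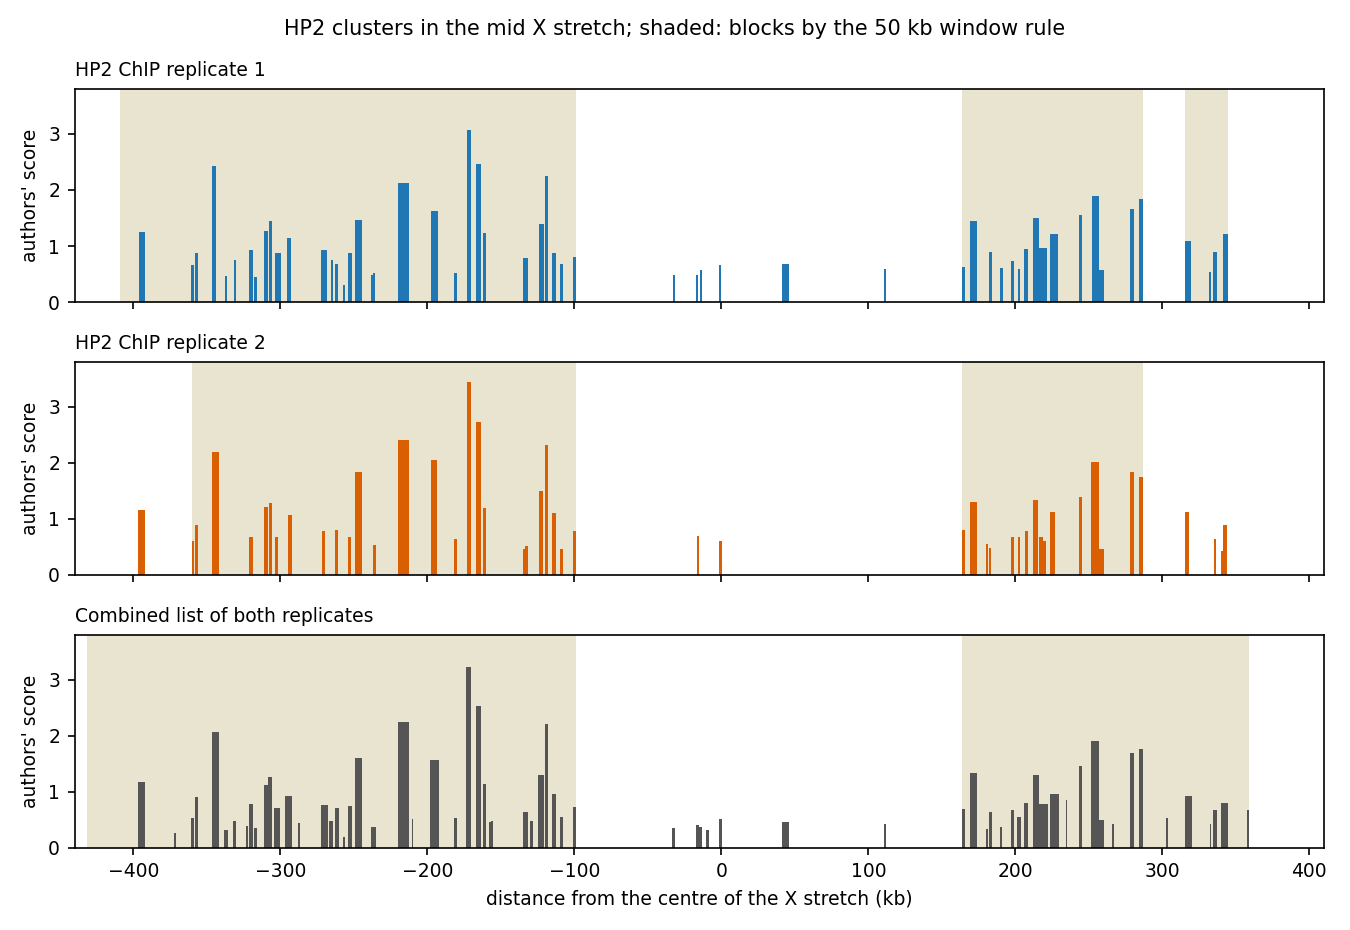
HP2 clusters of the stretch in replicate 1, replicate 2 and the combined list, against the distance in kb from the centre of the stretch; each bar is 1 cluster, its width the cluster's length and its height the authors' score, and shading marks the blocks. The inner edges of both blocks line up in the 3 lists, while the shading reaches to different outer limits.

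Between the blocks lay 263 kb with few clusters. The interval measured 262966 bp in replicate 1 and 263025 bp in replicate 2. Replicate 1 had 6 clusters there, over 4.88% of it, and replicate 2 had 2, over 1.17%. The mean was 3.02% ± 2.62 (SD, n = 2), and the combined list had 7 clusters over 6.31%. These shares lay below those of the rest of X in each list (7.59%, 5.42% and 10.8%). The block rule used this same coverage, so these values describe the interval and were not compared further.

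The clusters between the blocks scored low, and 5 of the 6 in replicate 1 were at most 2009 bp long. Only those at X:15982887-15984234 and X:15998023-16000031 of replicate 1 had a counterpart in replicate 2, with scores of 0.477 and 0.666 in replicate 1 and 0.693 and 0.599 in replicate 2. The other 4 of replicate 1 touched no cluster of replicate 2. They lay at X:15966731-15968460, X:15985688-15987084, X:16041179-16045845 and X:16110385-16112065, with scores from 0.489 to 0.679. The cluster at X:16041179-16045845 was long, at 4667 bp, and ranked 7th by length in replicate 1, but 39th by score. All 6 clusters scored below the median of the stretch in replicate 1, 0.884.

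The interval also held the longest empty runs of the stretch. In replicate 1 the longest were the 64 bins from 15902001 to 15966000 and the 64 bins from 16046001 to 16110000. In replicate 2 no bin from 16001001 to 16163000 was touched, a run of 162 kb. The next run there was that from 15901001 to 15983000, with 82 bins. Cutting the stretch into 16 windows of 50 kb gave the same picture: the window from 16050001 to 16100000 was 0% covered in all 3 lists. The window from 15900001 to 15950000 was 2.04% covered in replicate 1, 1.76% in replicate 2 and 2.42% in the combined list, all of it from the edge cluster of the left block. Longer cluster-free gaps than those of the stretch occurred elsewhere on X. The longest in the rest of X measured 377006 bp in replicate 1 and 377238 bp in replicate 2.

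Among the 50 kb windows inside the blocks, that from 16200001 to 16250000 was the most covered in both replicates, with 40.6% in replicate 1 and 34.2% in replicate 2. In the left block the window from 15650001 to 15700000 reached 36.6% in replicate 1 and 27.1% in replicate 2. Coverage fell most between the replicates in the window from 15700001 to 15750000 of the left block, from 28.2% in replicate 1 to 17.8% in replicate 2. The windows from 15750001 to 15900000 were each between 27.4% and 29.9% covered in both replicates.

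At the scale of single bins, most of the stretch was still empty. Of its 800 bins of 1 kb, 585 (73.1%) held no cluster base in replicate 1 and 626 (78.3%) in replicate 2. In the rest of X 89.2% and 92.1% of 19622 bins were empty. At least 50% of the bin was covered in 153 bins of the stretch (19.1%) in replicate 1, against a background of 7.76% in the rest of X. In replicate 2 the count was 126 (15.8%) against 5.51%, and in the combined list 193 (24.1%) against 10.9%. These shares restate what the stretch was chosen for. The longest fully covered run was the same 7 bins in all 3 lists, from 15780001 to 15787000.

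The 2 replicates touched largely the same bins. In the stretch 168 bins were touched in both, 47 in replicate 1 only, 6 in replicate 2 only and 579 in neither. Across the 800 bins the percent covered had a Pearson r of 0.86 and a Spearman rho of 0.85 between replicates. Across the 19622 bins of the rest of X these were 0.79 and 0.76. Neighbouring bins share clusters, and most bins are 0 in both lists, so these values are descriptions only.

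Clusters of the stretch were both closer together and longer than in the rest of X, and the difference was larger in number than in length. Replicate 1 had 7.13 clusters per 100 kb in the stretch against 3.42 in the rest of X. Replicate 2 had 6.13 against 2.56. The ratio of these densities was 2.24 ± 0.22 (SD, n = 2), while the ratio of mean cluster lengths was 1.23 ± 0.01. Inside the blocks the density was 10.5 ± 0.72 clusters per 100 kb on the left and 12.6 ± 0.56 on the right.

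Gaps between neighbouring clusters were correspondingly short. In replicate 1 the median gap was 4936 bp in the stretch and 10803 bp in the rest of X. In replicate 2 it was 6335 bp and 14315 bp. Gaps of at most 5 kb made up 50.0% of the 56 gaps of the stretch in replicate 1 and 45.8% of the 48 in replicate 2. In the rest of X they made up 30.3% and 26.2%. In the right block the median gap measured 3769 bp in replicate 1 and 3428 bp in replicate 2. In the left block it was 4359 bp and 6751 bp. The order was the other way in the combined list, with 3385 bp in the left block and 4429 bp in the right. Gaps of at most 5 kb made up 57.6% of those in the left block and 57.1% of those in the right in replicate 1, and 40.0% and 66.7% in replicate 2.

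Most of the longest gaps inside the blocks recurred in both replicates. The longest of the left block in replicate 1, the 31698 bp from 15607652 to 15639349, lay outside that block in replicate 2. In the left block the interval from 15840053 to 15864866 in replicate 1 (24814 bp) corresponded to that from 15840065 to 15865005 in replicate 2 (24941 bp). The interval from 15707484 to 15727799 (20316 bp) corresponded to that from 15707545 to 15728256 (20712 bp). The gaps on either side of the longest cluster, X:15779854-15787179, measured 15310 bp and 15326 bp in replicate 1 and 14979 bp and 15474 bp in replicate 2. In the right block the longest gap was that from 16260264 to 16278007 in replicate 1 (17744 bp), and it measured 17670 bp in replicate 2. The next measured 14478 bp and 16203 bp in the 2 replicates. A gap of 20703 bp in replicate 2, from 15657923 to 15678625, was broken in replicate 1 by clusters at X:15661987-15663464 and X:15668211-15669562. The right-block gap of 13213 bp in replicate 2, from 16183721 to 16196933, was broken in replicate 1 by X:16189641-16191324.

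Clusters of the stretch were longer than those of the rest of X, most of all among the longest. The median length was 2303 bp in the stretch against 2050 bp in the rest of X in replicate 1, and 2241 bp against 2012 bp in replicate 2. The upper quartile was 3256 bp against 2383 bp in replicate 1 and 2984 bp against 2226 bp in replicate 2. Clusters of at least 4 kb made up 11 of 57 (19.3%) in replicate 1 and 6 of 49 (12.2%) in replicate 2. In the rest of X they made up 3.42% and 2.19%. The lower quartiles were 1790 bp and 1755 bp in replicate 1. In replicate 2 they were further apart, at 1970 bp and 1750 bp.

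**Figure D3:**
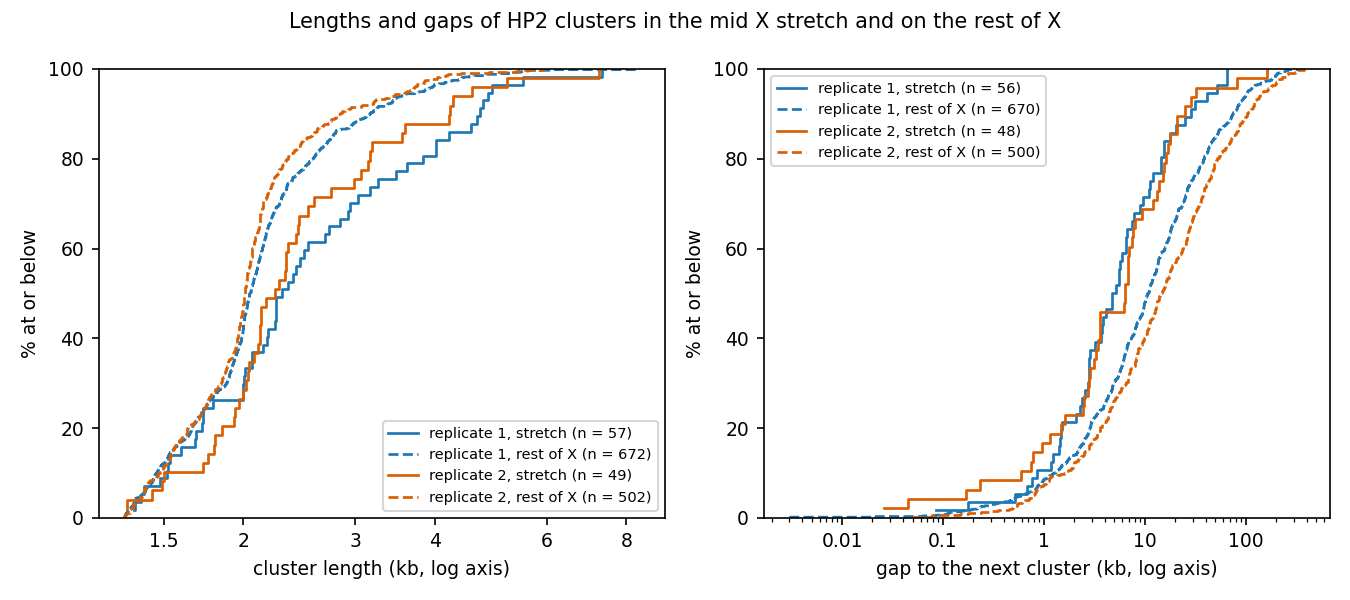
Cumulative distributions of cluster length (left) and of the gap to the next cluster (right), in kb on log axes, for the stretch (solid) and the rest of X (dashed) in replicates 1 and 2. The length curves are already apart at 2 kb. Clusters under 2 kb made up 29.8% in the stretch against 42.0% in the rest of X in replicate 1, and 26.5% against 47.4% in replicate 2. The gap curves of the stretch lie to the left, with medians of 4936 bp and 6335 bp against 10803 bp and 14315 bp.

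The longest cluster of the stretch spanned X:15779854-15787179 in replicate 1 (7326 bp, score 2.13) and X:15779943-15787181 in replicate 2 (7239 bp, score 2.41). It stood alone inside the left block, 15310 bp from the next cluster on its left and 15326 bp from the next on its right in replicate 1. In the right block the longest cluster of replicate 1, X:16216266-16221778 (5513 bp, score 0.969), was called as 2 clusters in replicate 2. These were X:16216403-16218538 and X:16218708-16220707, with scores of 0.677 and 0.607. The cluster at X:16251910-16256829 (4920 bp, score 1.89) was matched by X:16251677-16256874 (5198 bp, score 2.01). That at X:16223859-16228700 (4842 bp, score 1.21) was shorter in replicate 2, where it ended at 16227003 (3138 bp, score 1.12).

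The others among the 10 longest of replicate 1 were spread over the stretch. In the right block X:16169217-16173979 (4763 bp) scored 1.45, and 1.29 in replicate 2. In the left block X:15750854-15755565 (4712 bp) scored 1.46 in replicate 1 and 1.83 in replicate 2. The cluster at X:15802506-15807073 (4568 bp) scored 1.63 and 2.06. The remaining 3 were the left-hand cluster at X:15603444-15607651, the cluster between the blocks at X:16041179-16045845 and the first cluster beyond the right block, X:16315667-16319680 (4014 bp, score 1.08). Of the 10 longest, 6 were matched to one of the 10 longest of replicate 2.

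The 4 highest scores of the stretch all lay in the left block, in both replicates. The highest score of the stretch belonged to X:15826584-15829617 (3034 bp), with 3.08 in replicate 1, 3.43 in replicate 2 and 3.22 in the combined list. Next in replicate 1 came X:15833372-15836288, with 2.46 and 2.73. The pair lies 3754 bp apart. Then came X:15653714-15656443, with 2.43 in replicate 1 and 2.19 in replicate 2, and X:15879741-15882139, with 2.24 and 2.32. The longest cluster came 5th in replicate 1 and 3rd in replicate 2. In the right block the highest after X:16251910-16256829 were X:16284388-16286742, which forms its right edge, with 1.83 and 1.76, and X:16278008-16280533, with 1.67 and 1.83. The cluster at X:16243179-16245419 completed the 10 highest, with 1.55 and 1.38. Of the 10 highest scores of replicate 1, 9 were matched to one of the 10 highest of replicate 2.

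Among all clusters of X outside its proximal 2 Mb, the stretch held 4 of the 10 highest scores of replicate 1 and 6 of the 10 highest of replicate 2. Of the 50 highest scores it held 10 in replicate 1 and 11 in replicate 2. Its share of all these clusters was 7.82% in replicate 1 and 8.89% in replicate 2. The medians lay closer, at 0.884 for the stretch and 0.725 for the rest of X in replicate 1. In replicate 2 they were 0.809 and 0.701. The difference was 0.13 ± 0.04 (SD, n = 2) in the authors' own unit, of unstated scale. Scores above the upper quartile of the rest of X (0.972 and 0.921) were found in 22 of 57 clusters (38.6%) in replicate 1 and 22 of 49 (44.9%) in replicate 2. Only 1 cluster of the stretch in replicate 1 and 2 in replicate 2 exceeded the highest score of the rest of X, 2.53 and 2.46.

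Score rose with length, so both were set side by side. Across clusters the Spearman rho of score and length was 0.73 in the stretch and 0.72 in the rest of X in replicate 1, and 0.79 and 0.71 in replicate 2. Among clusters under 2 kb the median score was 0.541 in the stretch and 0.575 in the rest of X in replicate 1, and 0.553 and 0.581 in replicate 2. Among clusters of 2 to 4 kb it was 0.939 against 0.905 in replicate 1 and 1.09 against 0.891 in replicate 2. Among clusters of at least 4 kb it was 1.24 against 1.06 in replicate 1 (11 and 23 clusters) and 1.92 against 1.03 in replicate 2 (6 and 11 clusters). Short clusters of the stretch thus scored no higher than short clusters elsewhere on X, in either replicate. In the 2 longer classes the medians of the stretch were higher in both replicates, by little in replicate 1 for the class of 2 to 4 kb.

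**Figure D4:**
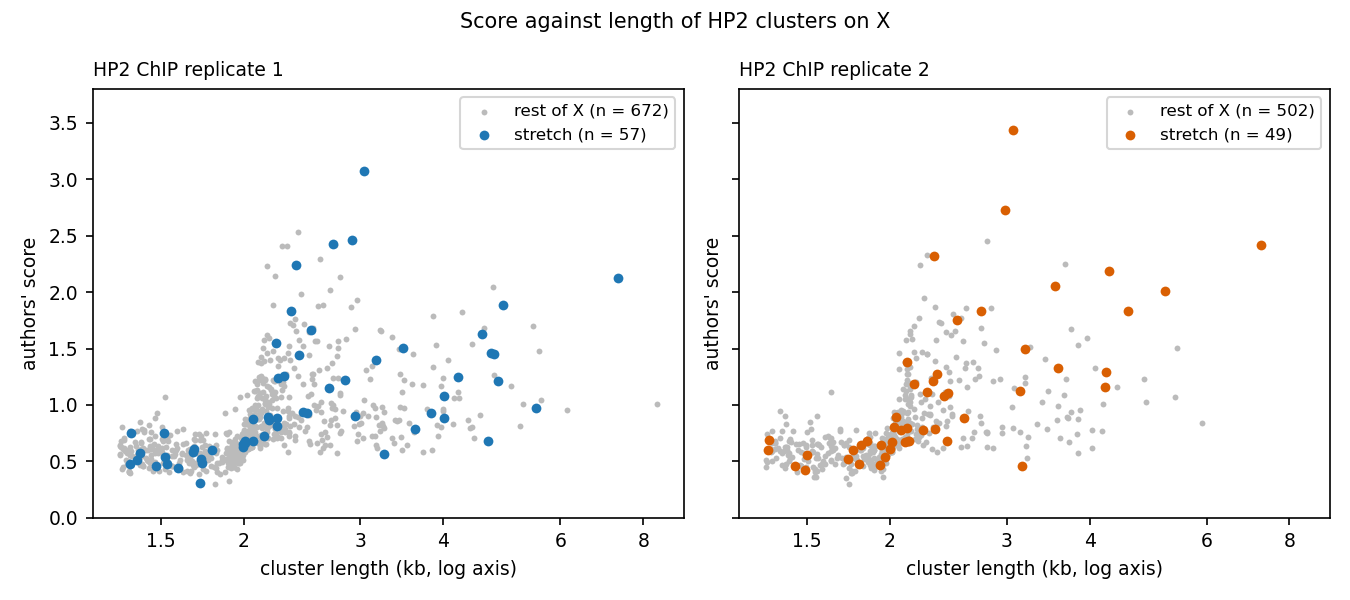
Authors' score against cluster length in kb (log axis) for clusters of the stretch (coloured) and of the rest of X (grey), in replicate 1 (left) and replicate 2 (right). Clusters under 2 kb overlap in score, and 1 cluster of the stretch in replicate 1 and 2 in replicate 2 lie above all grey points.

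Most clusters of the stretch were found in both replicates. A cluster was called shared where clusters of the other replicate took up 50% of it or more. In replicate 1, 45 of 57 were shared (78.9%, 95% Wilson interval 66.7% to 87.5%), and in replicate 2, 47 of 49 (95.9%, 86.3% to 98.9%). In the rest of X the shares were 66.4% (62.7% to 69.8%) and 90.4% (87.6% to 92.7%). These intervals cover counting error only and treat clusters as independent, which neighbouring clusters need not be. The stretch was chosen by its coverage in both lists, so sharing is a description and was not tested against the rest of X. The shared bases, 119 kb, made up 75.9% of the covered bases of the stretch in replicate 1 and 93.9% of those in replicate 2. In the rest of X they made up 64.0% and 89.5%.

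The clusters of replicate 1 that were not shared were short and low in score. Of these 12, 11 were under 2 kb, and their median score was 0.559 against 0.969 for the shared ones. All 12 lay in clusters of the combined list by at least 50%. They were found in the left block (6), the right block (1), the interval between (4) and the group beyond the right block (1), as the map of clusters shows. The 2 that were not shared in replicate 2 lay at X:16179827-16181328 and X:16340044-16341534, with scores of 0.553 and 0.424.

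Most matched clusters of the stretch began at nearly the same place, while their ends varied more. With an overlap of at least 50% of both clusters, 43 pairs were matched in the stretch. The median offset was 78 bp at the start and 105 bp at the end, and the largest were 549 bp and 1966 bp. A match needs that overlap, so clusters shifted further were left out. For 440 pairs in the rest of X the median offsets were 80 bp and 73 bp. The Spearman rho of the scores was 0.91 across the 43 pairs and 0.77 across the 440. The score was higher in replicate 2 in 18 of the 43 pairs and in 117 of the 440.

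The combined list added clusters that neither replicate had. In the stretch 13 of its 70 clusters (18.6%) touched no cluster of either replicate, against 29.8% of 988 in the rest of X. They were short, with a median of 1165 bp, and scored a median of 0.470, while the other combined clusters of the stretch scored 0.751. In the interval between the blocks there was 1 of them, X:15989782-15991716, with a score of 0.319.

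The same block rule was run along X and the distal parts of 2L, 3L and 3R, which leave out the 2 Mb nearest the centromere. It found 160 blocks in replicate 1, 58 of them on X, and 83 in replicate 2, 28 of them on X. Under this rule the left block of the stretch came first by length in both replicates, ahead of a block on 2L that measured 238 kb in replicate 1 and 260.8 kb in replicate 2. In replicate 2 the margin was small, with 261.2 kb for the left block. Without joining overlapping runs, the 2L block came first in all 3 lists, and the longest run of the left block came next, at 200.7 kb in replicate 1 and 196 kb in replicate 2. In the combined list the order of the 2 was reversed, with 339 kb on 2L and 333 kb on X. The right block ranked 9th by length in replicate 1, 3rd in replicate 2 and 7th in the combined list. The other blocks of X had a median length of 49.7 kb in replicate 1 and 45.3 kb in replicate 2, and the longest of them measured 155 kb and 82.3 kb.

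Between the 2 replicates, ranks by coverage differed more for the left block than for the right one. By coverage the left block ranked 62nd of 160 in replicate 1 and 50th of 83 in replicate 2, and the right block 17th and 14th. In the combined list they ranked 43rd and 39th of 239. The long block on 2L was 56.5% and 49.5% covered, with a median cluster length of 3174 bp and 2890 bp against 2309 bp and 2329 bp in the left block on X. The 2L block held 34 clusters in each replicate, and the left block on X 34 in replicate 1 and 26 in replicate 2. The 2 blocks most covered of all were short, at 11.1 kb and 23.4 kb in replicate 1 and at 18.0 kb and 17.8 kb in replicate 2. A kept window is at least 20% covered over 50 kb. A block trimmed to much less than 50 kb is therefore dense by the rule. The ranks by coverage set the long blocks against such short ones.

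**Figure D5:**
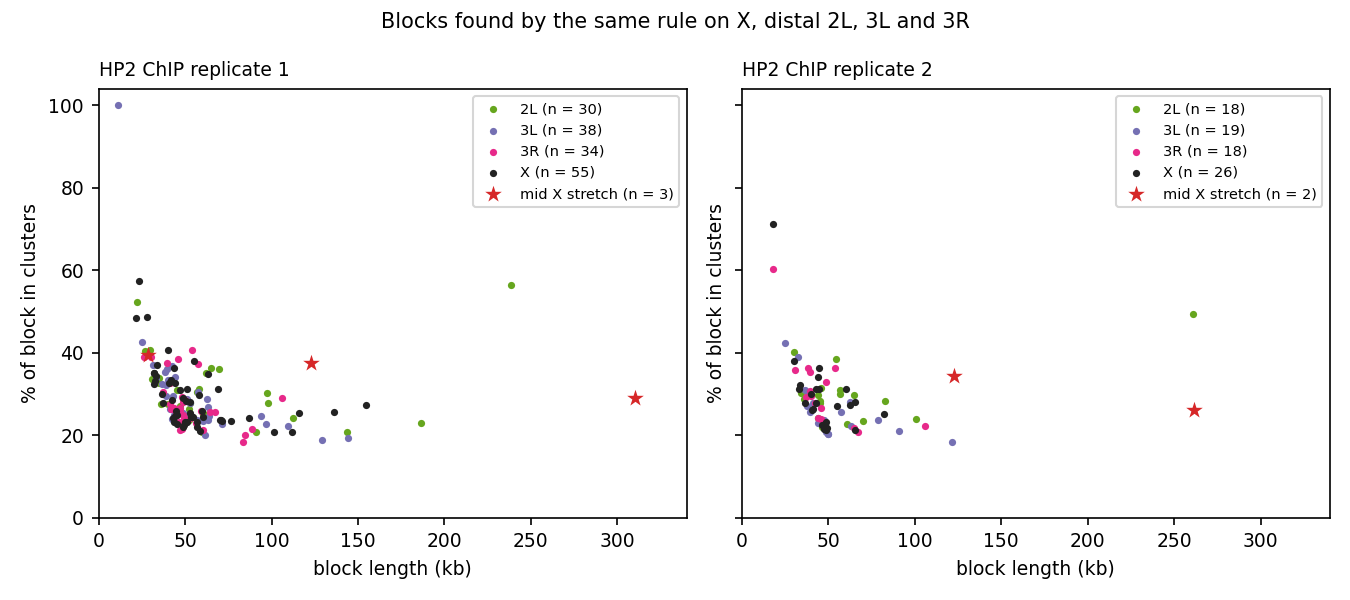
Percent of each block in HP2 clusters against block length in kb, for all blocks found on X and on distal 2L, 3L and 3R in replicate 1 (left) and replicate 2 (right); stars are the blocks of the mid X stretch. The left block lies at the right end of the length axis with 29.0% and 26.2% covered, and the long 2L block lies above it at 56.5% and 49.5%.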

How the data were processed

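HP2 ChIP-seq of adult head nuclei was available as 3 deposited lists of clusters: 1 for each of 2 ChIP replicates and 1 combined. Coordinates are on FlyBase r5, per the file headers, and Bowtie 0.12.7 is listed in the submitters' processing notes. What called the clusters, at which threshold, on which score scale and how the replicate set was merged were not given in the sources used here. The authors' score in the deposited lists was used only to rank and describe clusters within a list. The inputs had no list of their own and could have entered only through the authors' calls.

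Clusters were placed by their midpoint and bases counted once where clusters overlapped. The rest of X is X without the stretch and without its proximal 2 Mb. A gap is the number of bases between 2 neighbouring clusters. Regions were named by a rule: clusters at block edges, the 10 longest and 10 highest-scoring of replicate 1, long gaps inside blocks, clusters between blocks and the longest empty runs. The stretch, the block rule and these choices were made with earlier results of these data known, so no test was run. Values over replicates are means with the SD (n = 2). Joining overlapping runs of windows into 1 block was chosen after seeing the data. The block rule was also run on simulated lists with spacing set by hand. That run does not show how well the rule places edges here. Genes, base composition and sequences were not analysed here, for want of a genome on r5. Python 3.11.15, numpy 2.4.6, scipy 1.17.1, pandas 2.3.3 and matplotlib 3.10.9 were used.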

Additional observations from a re-analysis of the deposited data

How the results depend on the processing

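The ratio of the stretch to the rest of X stayed above 1 in every setting run. Each setting used the same lists by whose coverage the stretch was chosen, so this does not show stability. Dropping the clusters that scored below their list's median gave 12.9% covered, a ratio of 3.50, 33 clusters, a median length of 2628 bp, a median gap of 9617 bp, a median score of 1.25, block coverage of 24.6%, a total block length of 356 kb and a distance of 266 kb between blocks. The combined list gave 24.3%, 2.24, a length of 2460 bp, a gap of 3573 bp, a score of 0.673, block coverage of 34.8%, a block length of 527 kb and a distance of 262.7 kb. Merging clusters within 1 kb gave a length of 2438 bp. The mean number of blocks, 2.5, became 4.5 when overlapping runs of windows were not joined (added after seeing the data), 5 with windows of 30 kb and 4 with clusters chained over gaps of at most 10 kb, and mean block coverage, 30.4%, became 34.5% and 43.7% under the last 2 of these. The left block stayed whole with windows of 100 kb and at 15%, and split in both replicates with windows of 30 kb, at 30% and with chaining. Coverage was 28.0% and total length 488 kb both with windows of 100 kb and at a threshold of 15%. At 30% they were 34.4% and 293 kb, and with chaining the length was 169 kb, against 423 kb as reported. The mean distance between blocks over the replicates, 263.0 kb, was unchanged with windows of 30 or 100 kb and thresholds of 15% or 30%. This mean became 279.5 kb with chaining and 263.1 kb at the limits shared by all 3 lists, an alternative added after seeing the data. The combined list was less stable. There a block of 33.4 kb, X:15966694-16000124, appeared inside the interval with windows of 30 kb and at 15%. With windows of 100 kb its right block began at 16110338. The cause of the other changes was not tested. From 1 replicate alone, coverage was 15.8% to 19.5%, the ratio 2.57 to 2.91, clusters 49 to 57, length 2241 to 2303 bp, gap 4936 to 6335 bp, score 0.809 to 0.884, blocks 2 to 3, block coverage 28.8% to 32.0%, block length 384 to 461 kb and distance 262.97 to 263.03 kb. Of 89 values under other settings, 57 lay within the limits set for them and 32 did not. The limit was the SD of the 2 replicates, or a fixed factor for the numbers of clusters and blocks. Of the 57, 20 came from 1 replicate alone. Apart from the counts, such values lie within the SD of 2 replicates by construction and do not show stability. No paired analysis was possible because the inputs have no list of their own and the replicates form 1 group. Since depth is unknown, bases between clusters are uncalled and cannot be taken as free of HP2. Genes and sequences were not analysed here.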

Other observations

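In the right block, a cluster of 3256 bp at X:16257008-16260263 scored 0.565 in replicate 1 and 0.463 in replicate 2. It begins 178 bp after the end of the cluster at X:16251910-16256829, which scored 1.89 and 2.01. All 3 lists keep the 2 apart. At that length the cluster scored below the median of clusters of 2 to 4 kb in the stretch (0.939 and 1.09).

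The combined list has a cluster at X:16234222-16235256 with a score of 0.849, the 24th highest of its 70 clusters in the stretch, in a part of the right block where neither replicate has a cluster. Of the 13 clusters that touched neither replicate, the median score was 0.470. At 1035 bp it is shorter than any cluster of the stretch in replicate 1 (1348 bp) or replicate 2 (1312 bp). A second one, X:16357758-16358764, scored 0.676 at 1007 bp and sets the right limit of the right block in that list.

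Start and end were even numbers in all 7037 clusters of the combined list, and in 1143 of 4728 of replicate 1 and 1067 of 4163 of replicate 2. Of the 42 combined clusters of the stretch that were matched in both replicates, 38 were longer than both counterparts. The combined score lay between the replicates' scores in 22 and below both in 19. The shortest cluster in the rest of X measured 1302 bp in replicate 1, 1301 bp in replicate 2 and 1001 bp in the combined list. The settings behind the combined list were not stated, so limits and scores from it are not on the same footing as those of the replicates.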
